A study of Mus musculus with 2 samples.

Results

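The 9 genes described here encode the main chaperones of the cytosol and of the mitochondrial matrix: Hspa8, Hsph1, Dnaja1, Dnajb1, Hsp90aa1, Hsp90ab1, Hspd1, Hspe1 and Hspa9. They were chosen by name, and each has 1 of the 35976 gene rows in the count tables. They were measured in single OTII CD4 T cells sorted from mouse spleen, and SmartSeq2 libraries were made from whole transcripts with 1 cell per well. OTII cells carry a transgenic receptor for a peptide of ovalbumin. The study asked how IL-13 signalling shapes follicular helper T cells. The cells had been given to IL13Ra1 f/f, CD11cCre/+ hosts (called deleted hosts, 3 mice pooled) or to C57BL/6 hosts (called control hosts, 2 mice pooled), and were taken on day 7 after CAS and second priming. The labels do not explain CAS and give no age. CD11c-Cre acts mainly in dendritic cells, so the receptor gene was deleted in cells of the host and not in the sorted cells, and its level in the sorted cells would check nothing. Sorted cells excluded propidium iodide and stained for CD4 and V beta 5.1/5.2. Since the labels name no congenic marker, host CD4 cells with that V beta could have been sorted too.

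Chaperones bind unfolded or partly folded proteins and release them in cycles of ATP use. In the cytosol, HSP70 proteins take clients from J-domain partners, and HSP90 finishes many signalling proteins, among them kinases that T cell receptors depend on. In mitochondria, an HSP70 pulls proteins in through the inner membrane and the HSP60 and HSP10 chamber folds them. Most of these genes are read in all cells, and heat shock factor 1 raises many of them further after heat, oxidation or other protein damage. Fos and the other immediate early genes are switched on within minutes by receptor signals and also by tissue dissociation and sorting, and Fos is used here as a sign of handling.

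Each pool filled 4 plates with 92 cell wells each, so that 368 cells stood for each pool, 736 in all. The cell wells of deleted hosts held 542650671 reads in genes, and those of control hosts held 573105030. Of 7 CD4 T cell markers, 5 had a row (Cd3e, Cd3g, Cd4, Lck and Cd28), and they summed to 5794 counts per 1000000 reads in genes (CPM) in deleted hosts and 5530 CPM in control hosts. Among markers of other cells, the highest sum was that of 3 plasma cell markers, of which Xbp1 alone reached 5 CPM, with 118 CPM in deleted hosts and 112 CPM in control hosts. Monocyte and macrophage markers summed to 22.3 CPM in deleted hosts and 18.9 CPM in control hosts, NK cell markers to 20.5 CPM in deleted hosts and 16.1 CPM in control hosts, and CD8 markers to 9.47 CPM in deleted hosts and 26.5 CPM in control hosts. Erythroid and dendritic cell markers were at 11.2 CPM or less in both pools. A low sum did not always mean few cells. By the rule for positive cells given below, 287 deleted-host and 225 control-host cells were positive for at least 1 monocyte and macrophage marker. For erythroid markers these were 125 and 110 cells, and for B cell markers 5 and 8 cells. The summed level of 5 B cell markers was 4.90 CPM in deleted hosts and 5.01 CPM in control hosts, and that of 3 neutrophil markers was 6.51 CPM in deleted hosts and 5.29 CPM in control hosts. With 1 pooled sample per host type there was no replicate check and no test. The plates only divide the cells of a pool, and since each plate held cells of 1 pool, plate and pool cannot be told apart. One well of deleted hosts, with 9905 reads, held as few reads as the wells without a cell (6698 to 12348), and it was kept.

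Heat shock factors bind the heat shock element, a run of GAA units in alternating direction spaced by 2 bases. The 2 places where members carried 3 or more such units in a row are shown. These are the longest runs of the element found in the 5 of the 9 genes whose promoters were searched. Hspd1 and Hspe1 lie head to head, with starts at bases 55088024 and 55088132 of chromosome 1 in the GENCODE M21 basic set, while RefSeq and longer Hspd1 transcripts start elsewhere. Between these starts, chr1:55088054-55088081 is printed on the plus strand of GRCm38.p6 (RefSeq), with its 4 joined units in capitals. For Hsph1, chr5:149636287-149636308 is printed on the minus strand, the strand of the gene, with its 3 joined units in capitals. Both are read 5′ to 3′. The Hsph1 run lies after both RefSeq starts of the gene, in the 50 bases searched there, and not before them.
Hspd1 and Hspe1: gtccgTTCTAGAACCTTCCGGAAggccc
Hsph1: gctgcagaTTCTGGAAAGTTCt
The search covered both strands and both unit orders in windows of 250 bases before and 50 bases after each start. Of 32851 such windows in RefSeq, 8 (0.0244%) held 4 joined units, 0.603% held at least 3, and 15.1% held at least 2, as GAANNTTC in 7.86% or TTCNNGAA in 8.52%. The window of Hspe1 and 1 window of Hspd1 are both among the 8, since they hold the same element. Among the others of these 5 genes, Dnaja1 held one 2-unit match 124 bases before 1 of its starts, and Dnajb1 held 0 in its windows. A match is a description of letters, and no binding was measured.

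The chaperones were at nearly the same level in cells of deleted hosts and in cells of control hosts. The 9 genes summed to 5853 CPM in deleted hosts (plates from 5544 to 6213 CPM) and to 5485 CPM in control hosts (plates from 5075 to 6026 CPM), so the plates of the pools overlapped. None of the 9 lay past 2-fold, where 12.7% of the 9764 genes with at least 5 CPM in either pool did, and 5.91% of the 7207 genes with at least 20 CPM. None of the 9 had all plates of one pool above all plates of the other, beside 4.41% of genes at 5 CPM and 4.68% at 20 CPM. With shares this low, 0 of 9 would be common for any 9 genes, so neither count sets the chaperones apart. The median log2 ratio of deleted over control hosts was 0.17 over the 9 genes (order-statistic interval over the genes from -0.07 to 0.26), beside a median of -0.04 over the 9764 genes. Hsp90ab1 and Hspe1 were below 0 and the other 7 above it, of which Hsph1, Hspd1 and Hspa9 turned below 0 when 1 plate was left out. A pseudocount of 1 CPM was added to both pools before the ratio was taken. Counting error was small, with 95% Poisson bounds at most 1.18% above a pool's value, while plates of the same pool differed by 1.16-fold to 2.74-fold in the level of a chaperone. PCR copies count as separate reads here, so these bounds cover the counting of reads only.

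**Figure D1:**
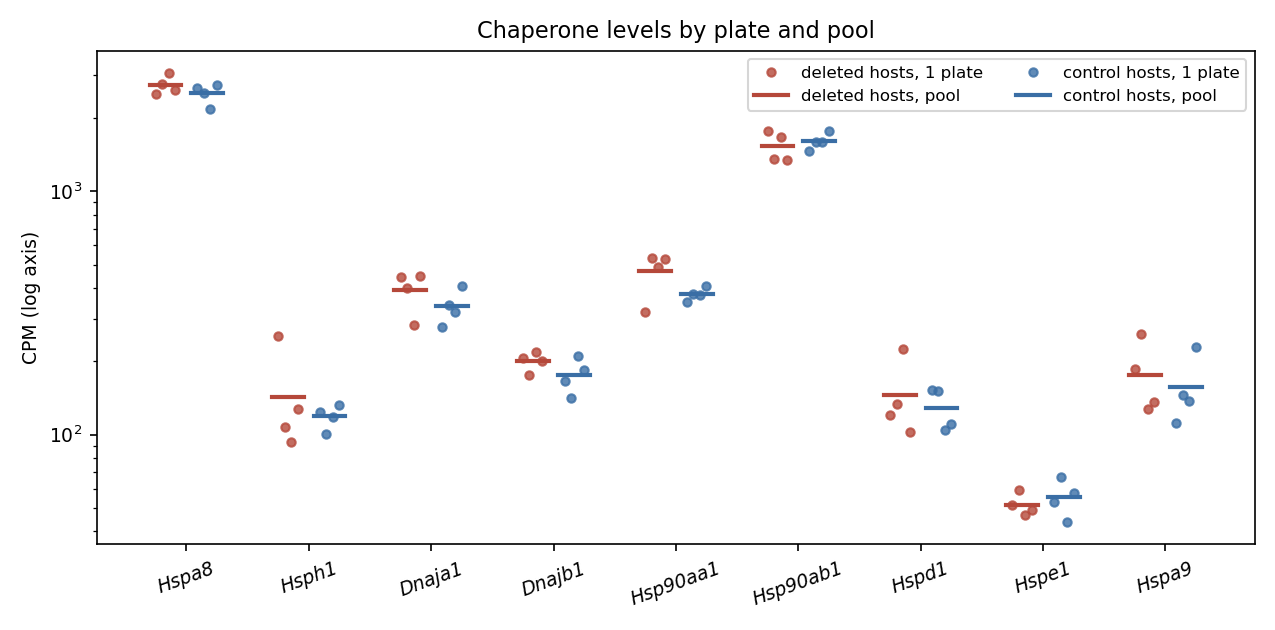
Level of each of the 9 chaperone genes in CPM on a log axis; each point is 1 plate of 92 cell wells and each bar is the pool of 4 plates, deleted hosts left and control hosts right. Hspa8 and Hsp90ab1 stand above the other 7 genes in every plate, and for all 9 genes the plates of the pools overlap.

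Hspa8 encodes HSC70, the constitutive HSP70 of the cytosol, and lies at chr9:40800984-40810087 on the plus strand. It had the highest level of the 9. It was at 2511, 2769.7, 3056 and 2609 CPM in deleted plates 1 to 4, against 2669, 2522, 2174 and 2727 CPM in control plates 1 to 4. Deleted plate 3 was the highest and control plate 3 the lowest, and the other 6 lay close together. The pools stood at 2741 CPM in deleted hosts and 2525 CPM in control hosts, a log2 ratio of 0.12.

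Hsph1 (HSP110, a nucleotide exchange factor for HSP70, chr5:149614287-149636376, minus strand) was at 255, 107, 93.2 and 128 CPM in the deleted plates 1 to 4, against 124, 101, 118 and 133 CPM in the control plates. Deleted plate 1 stood far above all others and deleted plate 3 was the lowest of the 8. The pool values were 143 CPM in deleted hosts and 119 CPM in control hosts, a log2 ratio of 0.26 that turned to -0.12 without deleted plate 1.

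The J-domain proteins deliver clients to HSP70 and start its ATPase. Dnaja1 (chr4:40722150-40737149, plus strand) was at 445, 400.02, 281 and 449 CPM in the deleted plates, against 276, 341, 319 and 408 CPM in the control plates. Deleted plates 2 and 3 lay inside the range of the control plates. Its log2 ratio was 0.22, from 393 CPM in deleted hosts and 337 CPM in control hosts. Dnajb1 (HSP40, chr8:83608193-83612653, plus strand) was at 206, 176, 219 and 201 CPM in the deleted plates, against 166, 142, 210.2 and 184 CPM in the control plates. The ranges overlapped, and its log2 ratio was 0.19. Dnaja1 overlaps Smu1 and the noncoding gene Gm6297 on the opposite strand, and without a stated strand setting reads of overlapping exons cannot be told apart.

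The log2 ratios of the HSP90 pair had opposite signs. Hsp90aa1, the HSP90 form that heat shock induces most (chr12:110690605-110702728, minus strand), had a log2 ratio of 0.31. It was at 319, 531, 490.03 and 527 CPM in the deleted plates, against 352, 378, 376 and 407 CPM in the control plates. Deleted plates 2 to 4 lay above all control plates, while deleted plate 1 was the lowest of the 8. Without deleted plate 1 the plates no longer overlapped and the log2 ratio was 0.45, in a setting where 7.97% of all genes had plates apart. Hsp90ab1, the constitutive form (chr17:45567775-45573271, minus strand), was at 1774, 1361, 1675 and 1343 CPM in the deleted plates, against 1467, 1599, 1594 and 1769 CPM in the control plates. Deleted plates 2 and 4 were the lowest of the 8 and deleted plate 1 the highest. The pools stood at 1532 CPM in deleted hosts and 1608 CPM in control hosts, a log2 ratio of -0.07.

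Hspd1 encodes HSP60, the barrel of the mitochondrial folding chamber (chr1:55077835-55088243, minus strand), and Hspe1 encodes HSP10, its lid (chr1:55088132-55091307, plus strand). Hspd1 was at 121, 133, 224 and 102 CPM in the deleted plates, against 152, 151, 104 and 110.2 CPM in the control plates. Deleted plate 3 alone stood above the control plates, and the log2 ratio of 0.17 became -0.12 without it. Hspe1 was at 51.5, 59.1, 46.8 and 48.9 CPM in the deleted plates, against 53.1, 66.8, 43.8 and 57.8 CPM in the control plates. Its deleted plates all lay inside the range of the control plates, with a log2 ratio of -0.10. In the full GENCODE M21 set, longer Hspd1 transcripts share 112 exon bases with Hspe1 on the opposite strand, where reads of the pair cannot be told apart without strand.

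Hspa9 encodes mortalin, the HSP70 of the mitochondrial matrix and motor of protein import. It was at 187, 260.3, 127 and 136 CPM in the deleted plates, against 112, 145, 137 and 230.01 CPM in the control plates. One plate of each pool, deleted plate 2 and control plate 4, stood above the rest. Leaving out deleted plate 2 turned its log2 ratio of 0.17 to -0.08, and leaving out control plate 4 raised it to 0.43.

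Between genes, levels were compared per kilobase of exons (GENCODE M21 basic set, GRCm38), a scale the authors' annotation may not share exactly. Hspa8 led, with 1145 CPM per kb in deleted hosts and 1055 in control hosts. Hsp90ab1 followed with 608 CPM per kb in deleted hosts and 638 in control hosts, and Hsp90aa1 with 139 in deleted hosts and 112 in control hosts. The plates of these 3 genes did not overlap with each other or with the rest on this scale. Hspe1, Dnaja1, Dnajb1, Hspd1 and Hspa9 lay between 57.9 and 68.1 CPM per kb in deleted hosts and between 51.4 and 71.4 in control hosts, and neighbours in this order overlapped in their plates. Hspe1, with the lowest CPM of all 9, thus stood above Hspd1 per kilobase. The values were 66.5 against 59.99 CPM per kb in deleted hosts and 71.4 against 53.3 CPM per kb in control hosts. Hsph1 was lowest, with 33.9 CPM per kb in deleted hosts and 28.2 in control hosts. GENCODE lists 13 pseudogenes named after Hspe1 (6), Hspd1 (5), Dnaja1 (1) and Hspa9 (1), and 0 of them have a row in the tables, so where their reads went is not known.

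Positive cells of a gene were those that reached 10 CPM and also 5% of its mean CPM over the plate. The second part was needed because wells without a cell also held 15 to 23 Hspa8 reads and 5 to 19 Hsp90ab1 reads: at a bare threshold of 5 reads, 100% of cells in both pools were positive for Hspa8. Under the rule, Hspa8 was positive in 319 of 368 deleted-host cells (86.7%, exact binomial 95% interval 82.8 to 89.98%) and in 316 of 368 control-host cells (85.9%, 81.9 to 89.3%). Hsp90ab1 was positive in 71.5% of deleted-host cells (66.6 to 76.03%) and in 77.4% of control-host cells (72.8 to 81.6%). Hsp90aa1 was positive in 57.3% of deleted-host cells and 54.9% of control-host cells. These intervals cover the sampling of cells within a pool and not the spread between mice or pools of mice.

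The other chaperones were found in fewer cells. Dnaja1 was positive in 48.9% of deleted-host cells (43.7 to 54.1%) and 43.5% of control-host cells (38.3 to 48.7%), and Hspe1 in 23.4% of deleted-host cells (19.1 to 28.03%) and 28.8% of control-host cells (24.2 to 33.7%). Dnajb1 was positive in 105 cells of each pool, 28.5%. Hspd1, Hspa9 and Hsph1 were positive in 13.6 to 19.8% of deleted-host cells and in 14.1 to 19.02% of control-host cells. The median difference in share over the 9 genes was 0.54 percentage points, with 5 genes higher in deleted hosts, and thinning every cell to 500000 reads gave 0.66. That thinning left out 4 deleted-host cells and 2 control-host cells.

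**Figure D2:**
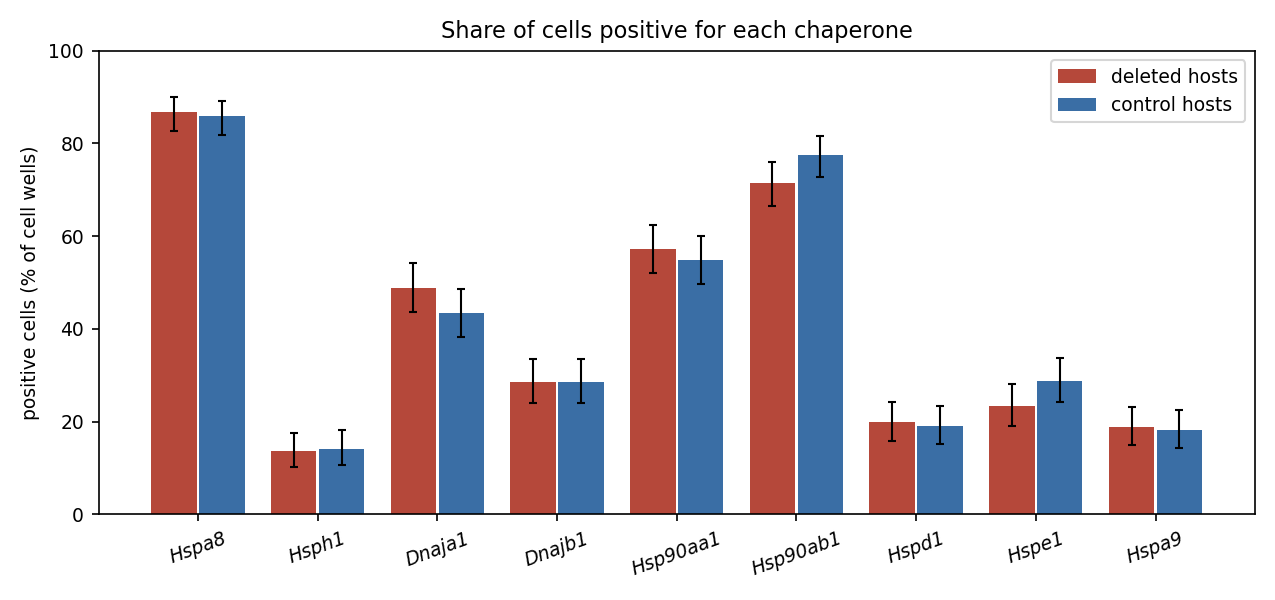
Share of the 368 cell wells of each pool that were positive for each gene, with exact binomial 95% intervals, deleted hosts left and control hosts right. The shares run from 13.6% for Hsph1 to 86.7% for Hspa8 in deleted hosts, and from 14.1% to 85.9% for the same genes in control hosts.

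Genes found in few cells were high where they were found. Hsph1-positive cells had a median of 1019.7 CPM in deleted hosts and 861 CPM in control hosts, while the median over all cells was 0.651 CPM in deleted hosts and 0.613 CPM in control hosts. Hspa9-positive cells had a median of 976 CPM in deleted hosts and 875 CPM in control hosts. Hspe1, a short transcript, was low also in its positive cells, at 170.1 CPM in deleted hosts and 164 CPM in control hosts. Hspa8-positive cells had a median of 2436 CPM in deleted hosts and 2387 CPM in control hosts, and the highest cell reached 15535 CPM in deleted hosts and 16124 CPM in control hosts. Detection in a single cell depends on depth and on capture, so these shares are not the shares of cells that express a gene.

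Cells of both pools held a median of 4 positive chaperone genes out of 9, with a mean of 3.68 in deleted hosts and 3.70 in control hosts. All 9 were positive in 3 deleted-host cells and in 0 control-host cells, where a floor of 3 counts out of 368 would be 0.815%. None was positive in 4 deleted-host cells and 2 control-host cells.

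**Figure D3:**
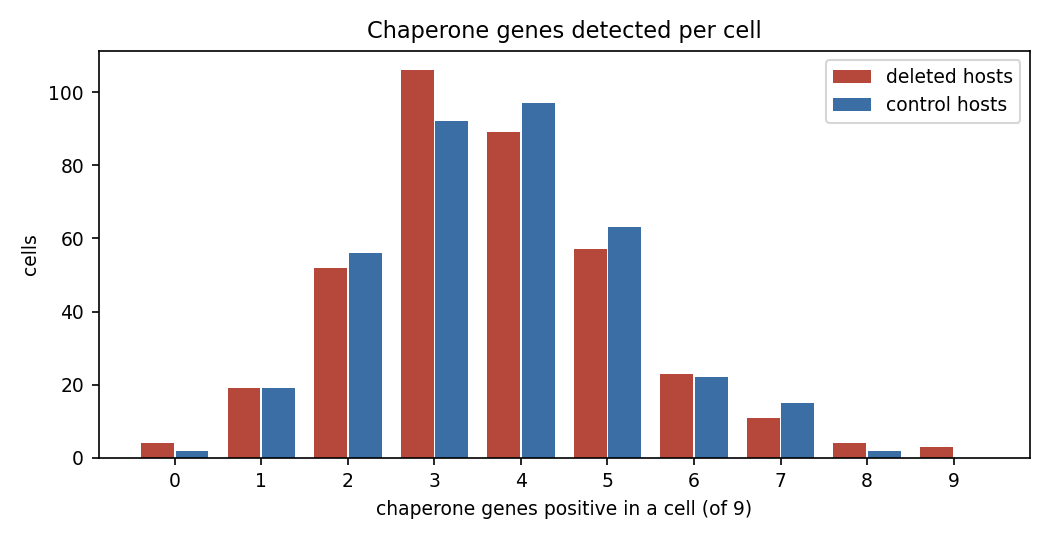
Number of cells by how many of the 9 chaperone genes were positive in them, deleted hosts left and control hosts right, 368 cells each. Both pools have their middle at 4 genes, and few cells hold 8 or 9.

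Fos, which forms the AP-1 factor with Jun, was at 517, 596, 763 and 586 CPM in the deleted plates, against 467, 353, 582 and 403 CPM in the control plates. Deleted plates 1 to 4 lay toward the upper end, but control plate 3 stood above deleted plate 1. The pools had 618 CPM in deleted hosts and 452 CPM in control hosts, a log2 ratio of 0.45, and Fos was positive in 39.7% of deleted-host cells (34.6 to 44.9%) and 33.2% of control-host cells (28.4 to 38.2%). Of 20 immediate early genes, 17 were measured. Past 2-fold, 3 of the 17 were higher (Junb, Klf4 and Klf6) and 1 was lower (Egr1), beside 12.7% of all genes at 5 CPM. Klf4 was low, at 6.40 CPM in deleted hosts (10 positive cells) and 0.72 CPM in control hosts (2 positive cells). A single cell held 74.4% of its reads in deleted hosts. The plates were apart for 8 of the 17, beside 4.41% of all genes at 5 CPM, and the median log2 ratio of the 17 was 0.48. Jun, the AP-1 partner, was at 471 CPM in deleted hosts and 284 CPM in control hosts. Dusp1, a phosphatase that ends MAP kinase signals, was at 1228 CPM in deleted hosts and 656 CPM in control hosts, and Cd69, an early activation marker, at 588 CPM in deleted hosts and 303 CPM in control hosts. For these 3 genes the plates were apart. Egr1, a zinc finger factor, was the only 1 of the 8 with its deleted plates below its control plates. It was at 116 CPM in deleted hosts and 296 CPM in control hosts. Atf3 was near the floor, with 2.21 CPM in deleted hosts and 0.73 CPM in control hosts. The chaperones thus had a median log2 ratio of 0.17 in the same libraries in which the immediate early genes had 0.48; the difference was not tested.

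Within plates, the chaperones went with Fos weakly or not at all. Over the cells of a plate, the Spearman rho of a chaperone with Fos, averaged over 8 plates, ran from -0.03 for Hspa8 to 0.05 for Hspd1, with a median of 0.02 over the 9 genes. The 1914 other genes with at least 100 CPM in both pools had a median of 0.03, and 95% of them lay between -0.05 and 0.11, a range that holds the values of all 9 chaperones (Hspe1 itself is below 100 CPM). In deleted hosts the median was -0.01 over the 9 chaperones, 4 of them above 0, and 0.03 over the other genes. In control hosts the median was 0.04 over the 9 chaperones, all 9 above 0, and 0.03 over the other genes. Of the 1914 other genes, 1307 were above 0 in deleted hosts and 1303 in control hosts. Hsp90aa1 was at -0.02 in deleted hosts and 0.12 in control hosts, and Hspa9 at -0.05 in deleted hosts and 0.10 in control hosts. The difference between pools was not tested. The 13 immediate early genes at 100 CPM had a median of 0.12 over all plates, from -0.01 for Nfkbia, 0.02 for Ier5 and 0.05 for Btg2 to 0.16 for Egr1 and 0.17 for Ier2 and Zfp36. These are descriptions over cells that share plate, pool and depth, with no test. Holding the number of genes detected per cell fixed left the chaperones' median at 0.02.

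**Figure D4:**
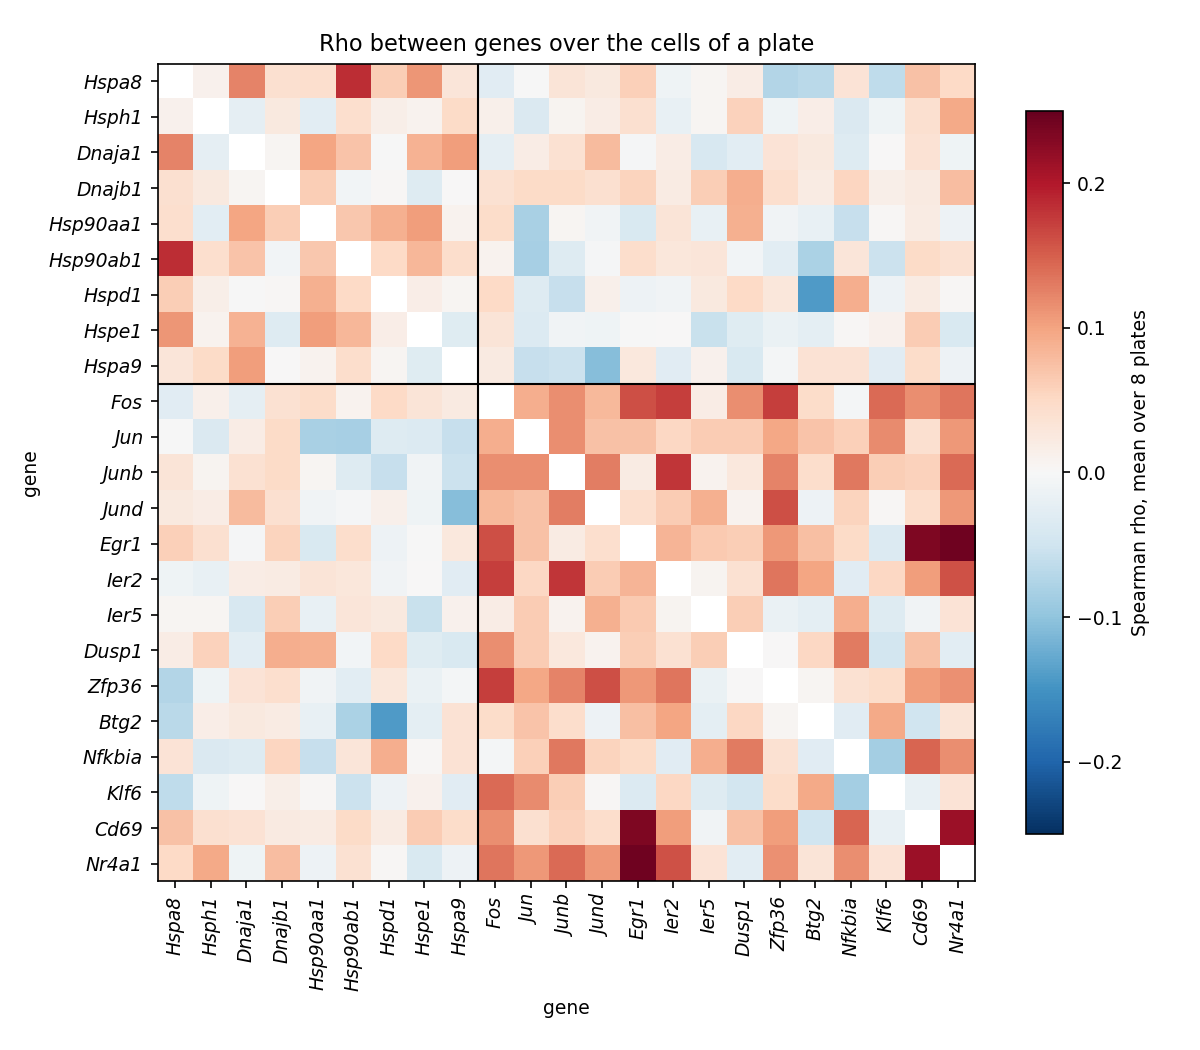
Spearman rho between pairs of genes over the cells of a plate, averaged over 8 plates, for the 9 chaperones (upper left block) and for Fos with 13 other immediate early genes (lower right block). The immediate early block is mostly above 0, while the blocks that join the chaperones to Fos and its companions hold values of both signs, between -0.03 and 0.05 for Fos itself.

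Cells positive for Fos were set against cells negative for Fos in each pool. In deleted hosts, the 146 Fos-positive cells had a mean of 3.77 positive chaperone genes and the 222 Fos-negative cells 3.63. In control hosts, the 122 Fos-positive cells had a mean of 3.93 and the 246 Fos-negative cells 3.59. Fos-positive cells also had more genes with at least 5 reads, with medians of 1676 in Fos-positive and 1477 in Fos-negative cells of deleted hosts, and of 1604 in Fos-positive and 1536.5 in Fos-negative cells of control hosts, and the part of this in the result was not tested.

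By gene, the share of positive cells differed between Fos-positive and Fos-negative cells by a median of 1.64 percentage points in deleted hosts and 4.61 in control hosts. It was higher in Fos-positive cells for 6 of 9 chaperones in deleted hosts and for 7 of 9 in control hosts. Of the 1914 other genes with at least 100 CPM in both pools, it was higher for 1516 in deleted hosts and for 1293 in control hosts. Hspe1 showed the widest gap between pools, positive in 21.9% of Fos-positive and 24.3% of Fos-negative cells in deleted hosts, but in 35.2% of Fos-positive and 25.6% of Fos-negative cells in control hosts. Dnajb1, which heat shock induces, was positive in 29.5% of Fos-positive and 27.9% of Fos-negative cells in deleted hosts, and in 32.8% of Fos-positive and 26.4% of Fos-negative cells in control hosts. No chaperone had a higher share in Fos-positive cells in more than 6 of 8 plates. Mean CPM did not always go the way of the share. In deleted hosts it was lower in Fos-positive cells for Dnaja1 (328 against 448 CPM) and Dnajb1 (190 against 207 CPM). The same held for Hsp90ab1 (1360 against 1512 CPM). Hspa8, Hsph1 and Hspd1 were higher there by both measures, and Hsp90aa1, Hspe1 and Hspa9 lower by both. In control hosts only Hspa8 had a higher share with a lower mean (2384 against 2502 CPM).

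Over the 1914 other genes at 100 CPM the median difference was 3.91 points in deleted hosts and 2.19 points in control hosts, and 95% of them lay between -5.31 and 14.6 points in deleted hosts and between -6.98 and 12.2 points in control hosts. All 9 chaperones were inside these ranges. The 13 immediate early genes at 100 CPM had a median difference of 9.77 points in deleted hosts (-3.60 for Ier5 to 23.8 for Zfp36) and 10.3 points in control hosts (1.27 for Nfkbia to 15.9 for Ier2), and the values of several overlapped those of the chaperones. Zfp36, which destabilises cytokine mRNAs, was positive in 74.7% of Fos-positive and 50.9% of Fos-negative cells in deleted hosts, and in 71.3% of Fos-positive and 60.98% of Fos-negative cells in control hosts. A chaperone of the endoplasmic reticulum, Hspa5 (BiP), differed by 16.96 points in deleted hosts and 10.7 points in control hosts, in 7 of 8 plates.

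**Figure D5:**
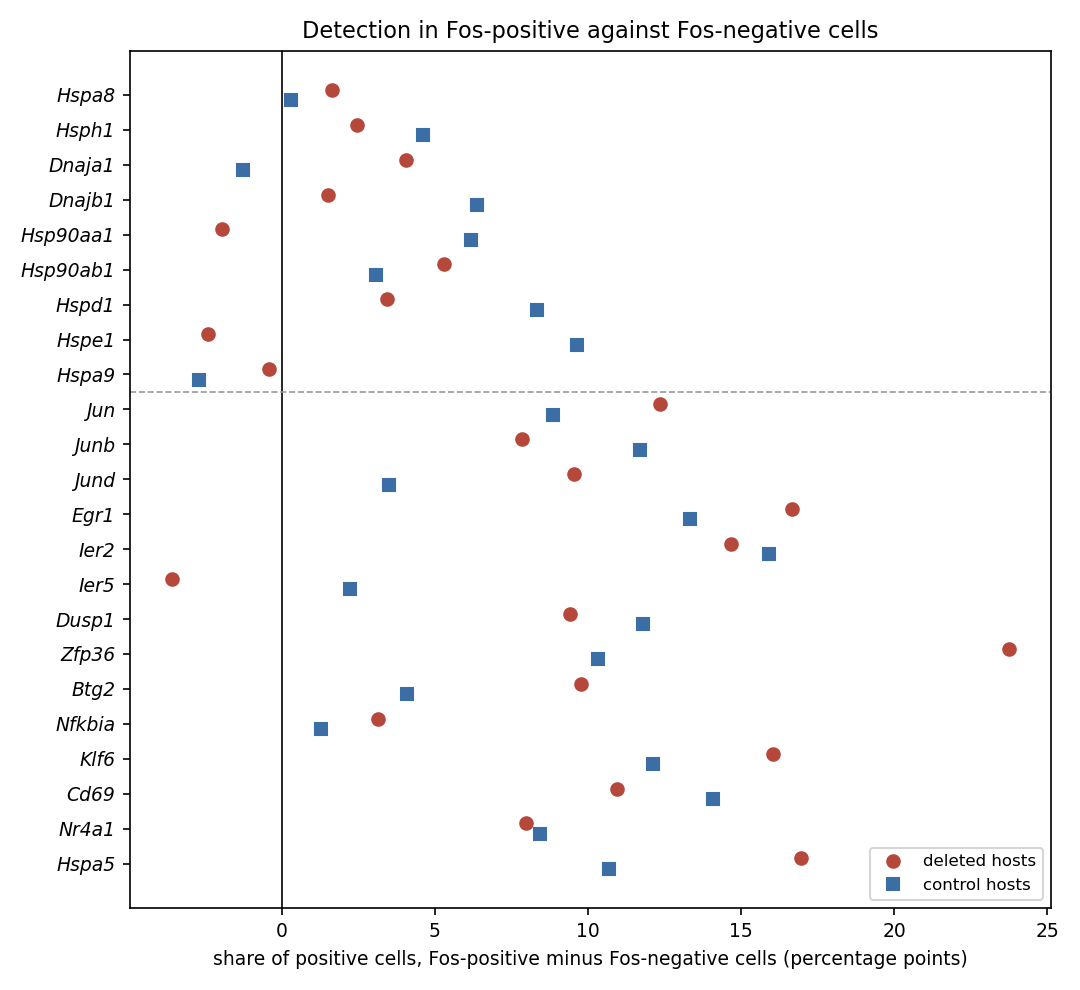
Share of cells positive for each gene in Fos-positive cells minus that in Fos-negative cells, in percentage points; circles are deleted hosts and squares control hosts, with the 9 chaperones above the dashed line. The chaperones lie between -2.71 and 9.64 points, and the immediate early genes and Hspa5 below the line between -3.60 and 23.8 points.

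The chaperones varied together only weakly from cell to cell. Over the 36 pairs, rho had a median of 0.04 (interval 0.01 to 0.06), beside 0.01 over 1848003 pairs of genes at 100 CPM, and 6 of the 36 lay above at least 98.5% of those pairs. The highest were Hspa8 with Hsp90ab1 (0.19), Hspa8 with Dnaja1 (0.12) and Hspa8 with Hspe1 (0.11), so that the constitutive HSP70 was in each of the top 3. Hspd1 with Hspe1, the head-to-head pair, had a rho of 0.02. Hspe1 was positive in 25 of 73 Hspd1-positive cells in deleted hosts (34.2%, 23.5 to 46.3%) and in 20.7% of Hspd1-negative ones (16.2 to 25.8%). In control hosts it was positive in 18 of 70 Hspd1-positive cells (25.7%, 16.01 to 37.6%) and in 29.5% of Hspd1-negative ones (24.4 to 35.1%), the other way. Hspd1 was positive in 30.4% of Hspa9-positive (19.9 to 42.7%) and 17.4% of Hspa9-negative cells (13.3 to 22.2%) in deleted hosts. In control hosts it was positive in 28.4% of Hspa9-positive (18.0 to 40.7%) and 16.9% of Hspa9-negative cells (12.9 to 21.7%). The intervals overlapped in both pools, and the rho of Hspd1 with Hspa9 was 0.005, above 45.0% of all pairs.

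The mean level of the 9 genes in a cell went with the number of genes detected in it (rho 0.29) and less with its reads (0.13). The genes most like that mean were Nme1, a nucleoside diphosphate kinase, with a rho of 0.21, Eif5a (0.20) and Eif4a1 (0.19), both translation factors, Set, a histone chaperone (0.19), and Lcp1, the actin bundler L-plastin (0.17). With the number of genes detected held fixed, these became 0.18, 0.17, 0.14, 0.15 and 0.11. Each is a mean over 8 plates of 92 cells. For single chaperones the gene most like it was Hsp90ab1 for Hspa8, and otherwise no member: Pfn1 for Hsp90ab1 (0.21), Srsf2 for Hsp90aa1 (0.17), Psma7 for Hspa9 (0.15), Psmc1 for Hspd1 (0.15), Arf6 for Hsph1 (0.14), Sh3bgrl for Dnajb1 (0.14), Myl6 for Dnaja1 (0.13) and Nme1 for Hspe1 (0.12).

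Of the 10 other heat-inducible genes, 5 were under 5 CPM in both pools and 5 were measured. Hspa1a, an inducible HSP70, had 59 reads in all cells of deleted hosts and 52 reads in those of control hosts, and Hspa1b had 1 read in each. These are near-identical copies, and how the counting treated reads that fit both is not given. Hspb1, the small HSP27, had 0 reads in both pools. The 5 measured genes had a median log2 ratio of 0.58 (from -0.69 to 1.95 over the 5). Past 2-fold lay 2, Dnajb4 and Dnaja4, beside 12.7% of all genes at 5 CPM. Dnaja4 was low, at 17.8 CPM in deleted hosts (9 positive cells) and 3.86 CPM in control hosts (3 positive cells), with deleted plate 4 at 0.07 CPM. Hspa4l, an HSP110 relative and the highest of the list, was at 121, 136, 8.65 and 23.8 CPM in the deleted plates, against 35.7, 61.7, 25.4 and 64.3 CPM in the control plates. Deleted plates 1 and 2 stood above all control plates and deleted plates 3 and 4 below them. Dnajb4, a J-domain protein, was at 26.7 CPM in deleted hosts and 10.8 CPM in control hosts, positive in 20 cells of deleted hosts and 7 cells of control hosts. Bag3, a partner of HSP70 in autophagy, was at 20.97 CPM in deleted hosts and 15.6 CPM in control hosts.

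Among partners of the chaperones, few genes lay past 2-fold. Of 21 HSP70 partners, 0 were higher and 2 lower past 2-fold, Dnajc21 and Bag2, both under 20 CPM and named after their values were seen. St13 (HIP), which steadies the HSP70 and client complex, was at 123 CPM in deleted hosts and 183 CPM in control hosts, a log2 ratio of -0.56. Of 15 HSP90 partners, 0 passed 2-fold, with a median log2 ratio of -0.06. Chordc1, a HSP90 cochaperone, had the ratio largest in size of these, -0.65, with 98.8 CPM in deleted hosts and 156 CPM in control hosts. Of 14 genes for the TRiC chamber and prefoldin, which fold actin and tubulin, 0 passed 2-fold. Cct7, a TRiC subunit, was at 508, 463, 437 and 461 CPM in the deleted plates, against 448, 370.1, 305 and 252 CPM in the control plates, with a log2 ratio of 0.44. Only control plate 1 reached into the range of the deleted plates.

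Of 14 genes for mitochondrial import and protein quality, 0 passed 2-fold. Lonp1, a matrix protease, had the ratio largest in size of these, -0.90, with 37.8 CPM in deleted hosts and 71.3 CPM in control hosts. Of 13 chaperones of the endoplasmic reticulum, 2 were higher past 2-fold, Dnajb9 and Hyou1, beside 12.7% of all genes at 5 CPM. Hyou1 was low, at 13.7 CPM in deleted hosts (8 positive cells) and 5.23 CPM in control hosts (3 positive cells). Dnajb9 (ERdj4), a J-domain partner of BiP, was at 97.9, 153, 186 and 184 CPM in the deleted plates, against 56.97, 105, 45.4 and 61.6 CPM in the control plates, and control plate 2 alone reached the deleted range. Dnajb11 (ERdj3), another partner of BiP, was at 221, 175, 206 and 253 CPM in the deleted plates, against 143, 90.3, 91.2 and 171 CPM in the control plates. It was the one gene of the chaperone and partner lists with plates apart. Hspa5 itself was at 1095 CPM in deleted hosts and 856 CPM in control hosts, a log2 ratio of 0.35. Of 3 genes for heat shock factors and their regulator, 0 were higher and 1 lower past 2-fold, Hsf2, with 2.94 CPM in deleted hosts and 7.61 CPM in control hosts. Hsf1, the main heat shock factor, was at 85.5 CPM in deleted hosts and 97.4 CPM in control hosts.

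Together, 82 other chaperone and partner genes were measured, of which 6 (7.32%) lay past 2-fold and 1 (1.22%) had plates apart, beside 12.7% and 4.41% of all genes at 5 CPM. Their median log2 ratio was -0.02.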

How the data were processed

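The deposited tables of the authors hold raw counts of reads for every gene in each well of 8 plates, and no scaling had been applied. Per the labels' protocols, oligo(dT)-primed cDNA went through 25 cycles of PCR and Tn5 tagmentation, with no molecular identifiers named. Counting with featureCounts 2.0.1 and the build mm10 are taken from the submitters' processing notes. The sources used here do not give the aligner, annotation, strand setting or handling of multiply mapped reads. The 32 control wells entered no comparison, no cell well was removed, and no doublet caller was run.

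Reads were summed over cell wells and scaled to CPM with pandas 2.3.3 and numpy 2.4.6, with intervals from scipy 1.17.1. With 1 pooled sample per group, genes are described by a fold of at least 2 and by whether plates overlap, and no p-value is given. The steps were tested on simulated data. Alternatives were scaling with edgeR 4.0.16 (TMM) and DESeq2 1.42.0 (size factors), pseudocounts, filters, thresholds, thinned cells and plates left out in turn.

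The members and the gene lists were chosen with earlier results of these data known. All 9 members were named, with up to 4 genes per list of other chaperones whose ratios were largest in size among those at 20 CPM, a set of immediate early genes, and the genes most like the members by rho. The immediate early genes outside that set, Hspa5 in the Fos comparison, and genes behind counts of 5 or fewer were named after their values were seen. Promoter windows and coordinates come from RefSeq and GENCODE M21 (GRCm38).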

Additional observations from a re-analysis of the deposited data

Results flagged for a closer look

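In wells that no comparison used, the medians of both HSP90 genes lay above the highest well without a cell. In 22 control wells with names that hold mBM, which the labels do not explain, Hsp90aa1 had a median of 1132 CPM (557 to 2031 CPM), above the highest of the 9 wells without a cell (940.4 CPM) and above every plate of sorted cells. Hsp90ab1 had a median of 1749 CPM there (909 to 2497 CPM), above the highest of the wells without a cell (1539 CPM). The other 7 chaperones had medians below the highest well without a cell. They were still found in the mBM wells, each at 10 CPM or more in at least 16 of the 22, and Hspa8, Dnaja1 and Hspe1 in all 22. The medians of Hspd1 (308 CPM) and Hspe1 (83.3 CPM) also lay above every plate of sorted cells, at most 224 CPM for Hspd1 and 66.8 CPM for Hspe1. The wells without a cell held at most 12348 reads, so that 1 read moves their values far, and 1 further mBM well with 11622 reads was left out of these medians.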

How the results depend on the processing

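Over 17 alternative settings the median log2 ratio of the 9 chaperones ran from 0.11 to 0.21 (0.11 to 0.21 with 1 plate left out), and 0 of 9 passed 2-fold in each. The number with plates apart was 0, and 0 to 1 with 1 plate left out: Hsp90aa1 without deleted plate 1. The 6 other chaperones and partners past 2-fold became 2 with a pseudocount of 10 CPM and 2 with a minimum of 20 CPM, and ran from 5 to 8 with 1 plate left out. The log2 ratio changed sign with 1 plate left out for Hsph1 (-0.12 to 0.42), Hspd1 (-0.12 to 0.31) and Hspa9 (-0.08 to 0.43), and kept its sign in all 17 settings for the other 6. The median difference in positive share ran from -0.45 to 1.09 points, the median rho with Fos from 0.01 to 0.04, and the median rho between chaperones from 0.02 to 0.04. TMM and size factors moved the median of all genes to -0.02 and -0.01. Genes under 20 CPM rest on few cells. No paired analysis was possible because each host type is 1 pooled sample and plates of the pools are not matched.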

Other observations

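Wells without a cell held few reads, but at levels near those of the sorted cells. Their median was 1904 CPM for Hspa8, where the pools had 2741 CPM in deleted hosts and 2525 CPM in control hosts. For Hsp90ab1 it was 1265 CPM, where the pools had 1532 CPM in deleted hosts and 1608 CPM in control hosts, and for Fos 567 CPM, where they had 618 CPM in deleted hosts and 452 CPM in control hosts. These wells held 19 Hspa8, 10 Hsp90ab1 and 7 Fos reads at the median. Cd3e, a subunit of the T cell receptor complex, had a median of 162 CPM in the wells without a cell and 1.18 CPM in the mBM wells.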
